A study of Drosophila melanogaster with 4 samples.

Results

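The genes described here encode the secreted proteases with which the larval gut of Drosophila melanogaster digests protein. They are the Jonah genes (symbols in Jon), the trypsin genes with symbols ending in Try, and 6 further genes listed by name. These 6 are Ser6, Ser8, yip7, Bace, CG11911 and CG11912. All the genes were chosen by gene symbol, with earlier results of these data known. Of these genes, 32 with 36 transcripts had values, of 12116 genes with 21529 transcripts in all. No values were analysed here for gammaTry and Ser12, and CG10475, a further name searched for, is a synonym of Jon65Ai in RefSeq. Whole wandering larvae of the last instar came from 2 genotypes. Oregon R+, a wild-type stock, served as control, and the other genotype was homozygous for hsromega[66], written hsromega66 below, an allele of the long noncoding RNA gene Hsromega. Each genotype had 2 total RNA libraries of 5 larvae each, and the authors pooled them into 1 FPKM value per transcript (fragments per kilobase of transcript, scaled to the number of fragments sequenced). Sequencing depth is unknown, because the values hold no counts, and no spread between libraries can be given.

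Protein digestion in the fly larva takes place in the midgut, where enterocytes secrete zymogens into the lumen. Most of these enzymes are serine proteases of the S1 family, which use a histidine, an aspartate and a serine to cut peptide bonds. Trypsins cut after basic residues, whereas the Jonah enzymes are related to chymotrypsin. Bace differs from the rest in being an aspartic protease. Larvae stop feeding when they begin to wander, and the midgut is replaced at metamorphosis. Because whole larvae were used, more gut cells and more RNA per gut cell cannot be told apart in any value below. Each genotype came from its own stock. The allele, the genetic background and any difference in larval timing therefore cannot be told apart either.

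The label of the mutant was checked first. Hsromega itself was listed at 232 FPKM in control larvae and 0.290 FPKM in hsromega66 larvae, and the lower of its q values was 0.998 by the authors' deposited table. Markers of enterocytes were found at similar levels in both genotypes. The 6 enterocyte markers (Myo31DF, Myo61F, mex1, Npc1b, nub and GATAe) were all above 0 and summed to 106 FPKM in control larvae and 115.1 FPKM in hsromega66 larvae.

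Many of the proteases were abundant in the whole larva, and 5 stood among the 100 highest genes in each genotype, though not the same 5. Jon99Cii and Jon99Ciii were among them in control larvae only, and Jon65Aiii and Jon99Fii in hsromega66 larvae only. In control larvae their levels ran from 0.748 FPKM (lambdaTry) to 3524 FPKM (Jon99Cii), with a median of 225 FPKM. In hsromega66 larvae they ran from 1.32 FPKM (Ser8) to 3770 FPKM (Jon25Biii), with a median of 563 FPKM. At least 1000 FPKM was reached by 10 of the 32 genes in control and by 13 in hsromega66 larvae. Summed over all 32 genes, the level was 23022 FPKM in control larvae and 29881 FPKM in hsromega66 larvae, so the ratio was 1.30. This was 2.37% of all FPKM in control and 3.21% in hsromega66 larvae. The order of the genes by level was largely kept, with a Spearman rho of 0.87 between the genotypes over the 32 genes, given as a description.

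**Figure D1:**
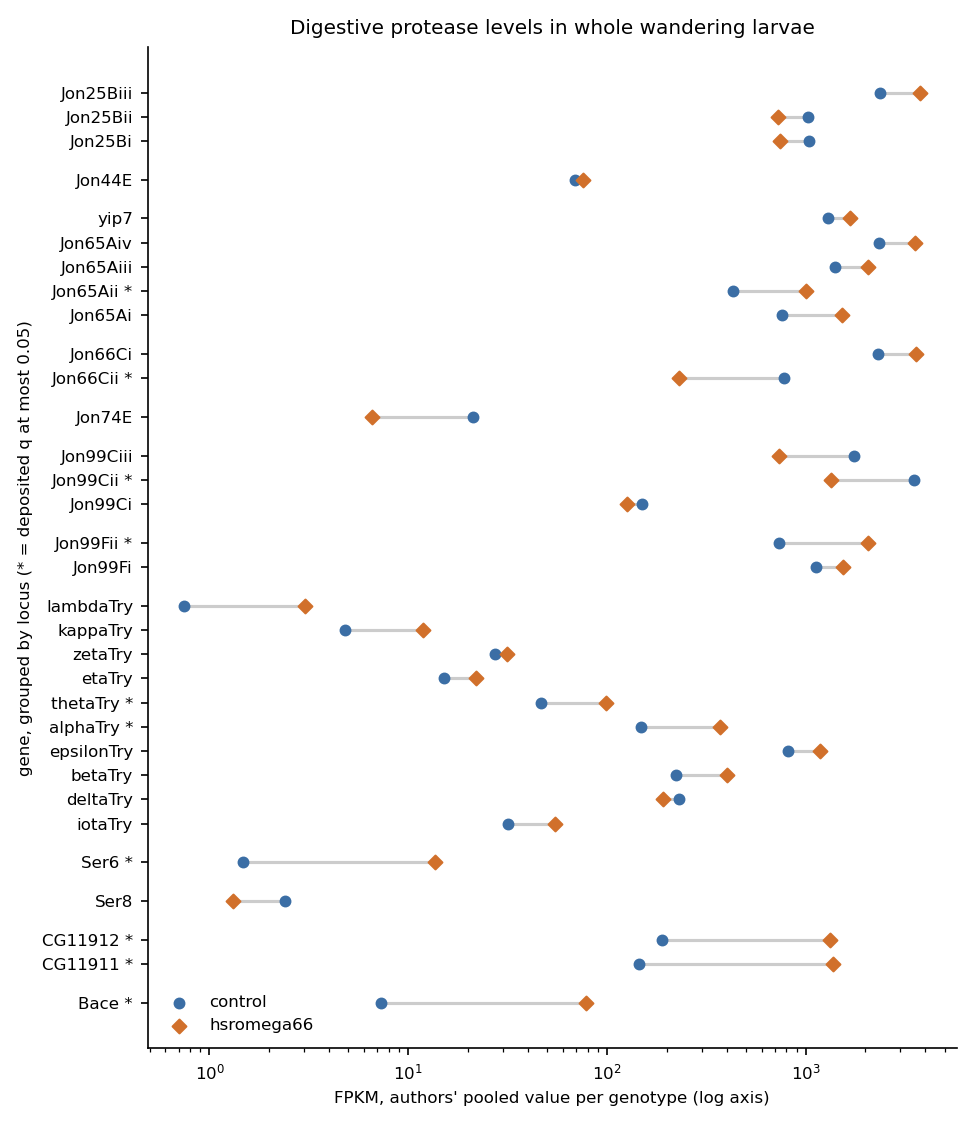
Level of each of the 32 protease genes in FPKM on a log axis, as the authors' pooled value for control (circles) and hsromega66 (diamonds), with genes grouped by locus and an asterisk at a deposited q of at most 0.05. The hsromega66 value lies to the right of the control value for 23 genes and to the left for 9, among them all 3 Jon99C genes.

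Most of the proteases were higher in hsromega66 larvae. Rises and falls were called where at least 1 transcript of a gene had a q of at most 0.05 in the authors' deposited table of Cuffdiff values. By this rule 8 of the 32 genes rose and 2 fell, which is 31.2% of them, where 2.31% of all 12116 genes were called, 1.4% as rises and 0.908% as falls. Abundant genes were called more often in general: among genes with at least 100 FPKM in 1 genotype the background was 9.22% of 987 genes, 5.78% as rises and 3.44% as falls, and of the 21 proteases at that level 5 rose and 2 fell. Of the genes with Jon and Try symbols alone, 6 of 26 were called, and the other 4 calls were among the 6 genes listed by name. The genes were chosen with earlier results of these data known, so these shares describe the genes and are not a test. All 32 genes reached 1 FPKM in at least 1 genotype, and their median difference was 0.57 on the log2(FPKM + 1) scale, hsromega66 minus control, beside -0.011 for all genes with at least 1 FPKM. At an unadjusted Cuffdiff p of at most 0.05, 13 of the proteases were higher and 3 lower, 50% of them, where 7.82% of all genes had such a p, 4.62% higher and 3.15% lower. Here 9 proteases lay below 0, so the higher median does not describe every gene.

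**Figure D2:**
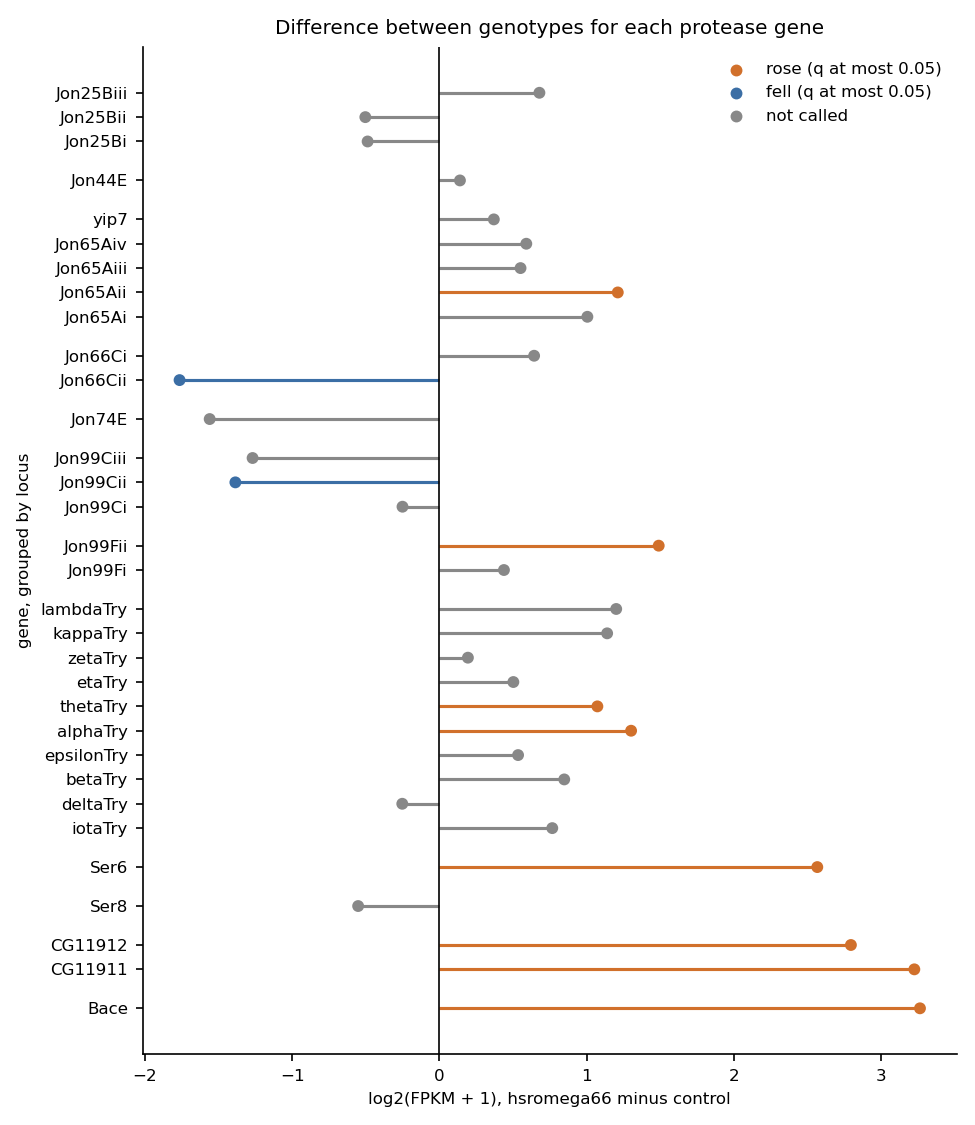
Difference of each protease gene on the log2(FPKM + 1) scale, hsromega66 minus control, grouped by locus, coloured where the deposited q was at most 0.05. The differences run from -1.76 (Jon66Cii) to 3.26 (Bace), and the Jon99C genes lie below 0 while the Jon65A and Jon99F genes lie above 0.

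The Jonah genes moved in both directions, and the Jon25B and Jon66C groups were divided within themselves. Of 16 listed, 2 rose and 2 fell, beside 1.4% and 0.908% of all genes. Of the 16, 9 lay above 0 and 7 below, and their summed level was 19845 FPKM in control larvae and 23069 FPKM in hsromega66 larvae. The Jonah enzymes made up most of the protease FPKM in both genotypes. Their median difference was 0.29 on the log2(FPKM + 1) scale and their mean was -0.030, so median and mean differ in sign.

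The tandem Jon65A group on chromosome arm 3L (6035216 to 6054443, dm6), which holds yip7 and 4 Jonah genes, was higher throughout. Jon65Aii, a single-transcript gene of this group on the plus strand (3L, 6052321 to 6053215), rose from 432 to 1002 FPKM, a log2 difference of 1.21, and the authors' deposited table gave q = 0.0177. Its neighbour Jon65Ai stood at 758 and 1521 FPKM, with a lowest q of 0.118 in the authors' deposited table. Of these neighbours, with ratios of 2.32 and 2.01, 1 passed the threshold. Jon65Aiii stood at 1412 and 2070 FPKM. Jon65Aiv, the most abundant of the group, stood at 2346 and 3533 FPKM. The gene yip7, a Jonah-related protease first found as a partner of the Yippee protein, stood at 1291 and 1668 FPKM. None of these last 3 passed the threshold, and all had a q of 0.998 in the authors' deposited table. Together the 5 genes summed to 6240 FPKM in control larvae and 9794 FPKM in hsromega66 larvae, so the ratio was 1.57.

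In the Jon99C group on 3R (29922216 to 29926189), all 3 Jonah genes were lower in hsromega66 larvae. Jon99Cii (minus strand, 29923754 to 29924615) was the most abundant protease of control larvae and fell from 3524 to 1348 FPKM, a log2 difference of -1.39, and the authors' deposited table gave q = 0.0332. It ranked 38th of all genes by level in control and 142nd in hsromega66 larvae. Jon99Ciii, which lies beside it, stood at 1760 and 730 FPKM, and the authors' deposited table gave q = 0.0563, just outside the threshold. Jon99Ci, the least abundant, stood at 150 and 126 FPKM. The group summed to 5434 FPKM in control larvae and 2204 FPKM in hsromega66 larvae, so it was the most reduced of the loci that hold several proteases. Jon99Cii and Jon99Ciii are close paralogs, so reads may have been divided wrongly between them, which their sum does not depend on.

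The Jon99F pair, on the same chromosome arm (30487016 to 30489895), was higher instead. Jon99Fii (minus strand, 30487016 to 30487928) rose from 734 to 2062 FPKM, with a log2 difference of 1.49 and the smallest q of the authors' deposited table, 0.00546. Jon99Fi stood at 1132 and 1535 FPKM, where the authors' deposited table has q = 0.998. In control larvae Jon99Fi was thus the higher of the pair and in hsromega66 larvae Jon99Fii was. The pair summed to 1866 FPKM in control larvae and 3596 FPKM in hsromega66 larvae, so the ratio was 1.93. They are close paralogs as well, and the same uncertainty applies to their single values.

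The Jon66C pair (3L, 8391540 to 8393649) was divided. Jon66Cii (minus strand, 8392820 to 8393649) fell from 782 to 230 FPKM, a log2 difference of -1.76, and the authors' deposited table gave q = 0.00546. This was the most negative difference of any protease described here. Jon66Ci, less than 1 kb away on the plus strand, stood at 2300 and 3593 FPKM, where the authors' deposited table has q = 0.998. It ranked 67th of all genes in control and 31st in hsromega66 larvae. The pair as a sum was higher, at 3082 and 3822 FPKM, although the 1 call in it was a fall.

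The remaining Jonah genes were not called. In the Jon25B group (2L, 4949941 to 4955144), Jon25Biii stood at 2354 and 3770 FPKM and was the most abundant protease of hsromega66 larvae. Its neighbours pointed the other way: Jon25Bi stood at 1041 and 743 FPKM, and Jon25Bii at 1029 and 726 FPKM. Jon25Bii had a second listed transcript, at 7.02 FPKM in control and listed at 0 in hsromega66 larvae. All 3 genes had a q of 0.998 in the authors' deposited table. Jon44E on 2R stood at 68.9 and 76.0 FPKM. Jon74E on 3L, a gene of 3 exons, was listed as a pair of transcripts that pointed in opposite directions. One stood at 19.8 and 0.0539 FPKM and the other at 1.47 and 6.48 FPKM. Both had a q of 0.998 in the authors' deposited table despite their ratios, and the sum of the gene was 21.2 and 6.537 FPKM.

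**Figure D3:**
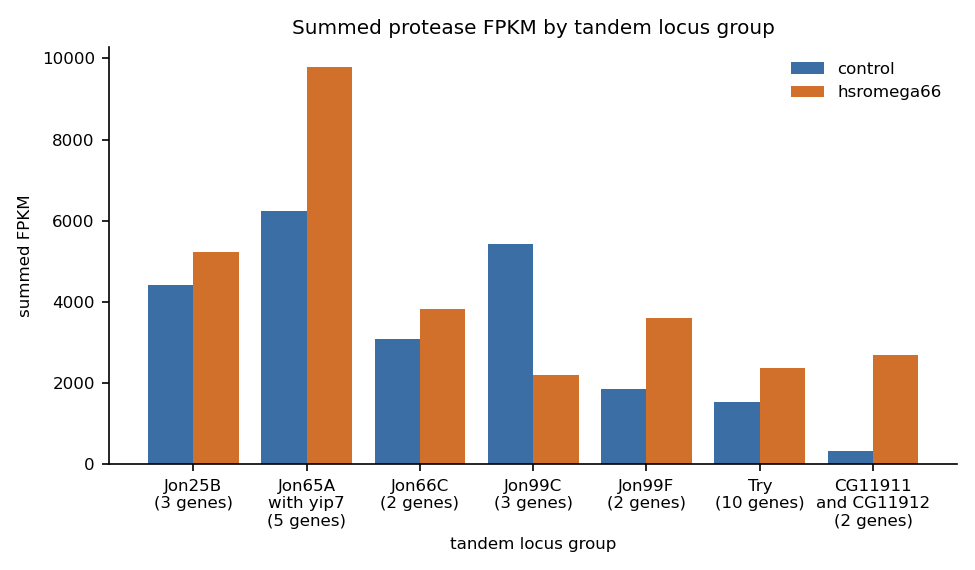
Summed FPKM of the proteases of each locus that holds several of them, in control and hsromega66 larvae (authors' pooled values, so no error bars). The Jon99C group is lower in hsromega66 larvae, at 2204 against 5434 FPKM, and the other 6 groups are higher.

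The trypsin genes with symbols ending in Try lie in 1 cluster on 2R (11336840 to 11357537). Of the 10 listed, 9 were higher in hsromega66 larvae. Of these, 2 rose by q, and 6 were higher at an unadjusted Cuffdiff p of at most 0.05, with none lower. Over all genes 1.4% rose by q and 4.62% were higher at such a p. The median log2 difference of the trypsins was 0.81, and their sum was 1540 FPKM in control larvae and 2362 FPKM in hsromega66 larvae. The alpha trypsin gene alphaTry (minus strand, 11344260 to 11345119) rose from 149 to 369 FPKM, a log2 difference of 1.30, and the authors' deposited table gave q = 0.00546. The gene thetaTry (minus strand, 11341714 to 11342760) rose from 46.7 to 99.3 FPKM, a log2 difference of 1.07, and the authors' deposited table gave q = 0.0177.

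The other trypsins spanned a wide range of levels. The most abundant, epsilonTry, stood at 814 and 1179 FPKM, and betaTry stood at 222 and 400 FPKM. At lower levels, iotaTry stood at 31.8 and 54.7 FPKM, zetaTry at 27.2 and 31.3 FPKM and etaTry at 15.2 and 21.9 FPKM. The lowest were kappaTry, at 4.83 and 11.8 FPKM, and lambdaTry, at 0.748 and 3.02 FPKM. Of these, betaTry, iotaTry, kappaTry and lambdaTry had an unadjusted p of 0.0102, 0.0096, 0.0043 and 0.00795 in the authors' deposited table, and q values from 0.204 to 0.396. The 1 trypsin that was not higher was deltaTry, at 229 and 192 FPKM, where the authors' deposited table has q = 0.998. It belongs to a stretch of near-identical copies with gammaTry and CG30025, so its value is uncertain. Sequences were not compared here, so the same may hold for other tandem copies, the called alphaTry among them. CG30025 was listed at 0.734 and 0.686 FPKM.

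The genes listed by name held the largest ratios. CG11911 and CG11912 encode serine proteases of the same family and lie side by side on the minus strand of 2L (318362 to 321248). CG11911 rose from 145 to 1368 FPKM, a log2 difference of 3.22, and the authors' deposited table gave q = 0.00546. CG11912 rose from 189 to 1320 FPKM, with a log2 difference of 2.79 and the same q in the authors' deposited table. The pair moved from 335 to 2688 FPKM in sum, a ratio of 8.03, and from ranks 662 and 537 among all genes to ranks 138 and 148. Their summed level was 2354 FPKM higher in hsromega66 larvae, while that of the Jon99C group was lower, with a difference of -3230 FPKM.

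Bace (minus strand of 2L, 8494893 to 8496307), the aspartic protease, rose from 7.32 to 78.9 FPKM, a log2 difference of 3.26, and the authors' deposited table gave q = 0.00546. The call rests on its main transcript, and a second one was listed at 0 in control larvae and 3.61 FPKM in hsromega66 larvae. Ser6 (minus strand of X, 20962605 to 20963505) rose from 1.48 to 13.7 FPKM, a log2 difference of 2.57, and the authors' deposited table gave q = 0.00546. Ser8, the lowest of the 32 genes in hsromega66 larvae, stood at 2.40 and 1.32 FPKM, where the authors' deposited table has q = 0.998. The authors' own class of higher transcripts, which held 0.622% of all transcripts, included 5 protease transcripts: those of CG11911, CG11912, Bace, Ser6 and lambdaTry.

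Short genes with few introns were the rule among the proteases. By the Ensembl annotation of dm6, 26 of the 32 genes have a single exon, 81.2% of them, where 13.7% of 11108 listed protein-coding genes do. The 6 others are Jon65Aii, Jon65Aiii, Jon65Aiv, yip7, Jon74E and Jon99Ci. The longest annotated transcript of each gene measured between 810 bp (deltaTry) and 1415 bp (Bace), with a median of 904 bp beside 1798 bp for all listed protein-coding genes. Several proteases overlap another gene. Bace lies wholly within Dh31 on the same strand, CG11911 and CG11912 within Plc21C on the opposite strand, and Ser8 within CG42321 on the opposite strand. The sources used here do not say whether reads were counted by strand. None of these host genes was called: Dh31 stood at 1.31 and 2.11 FPKM, Plc21C at 5.81 and 4.06 FPKM, and CG42321, above the level of Ser8, at 15.0 and 12.5 FPKM.

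Genes next to the proteases were compared with them. Within 10 kb of a protease 52 other genes were listed, of which 1 rose and 1 fell, beside 1.4% and 0.908% of all genes. The median log2 difference of the 50 with at least 1 FPKM was -0.059. The fall was in Sgs1, a salivary gland glue gene near the Jon25B group, from 10.7 to 3.67 FPKM, where the authors' deposited table has q = 0.00546. The rise was in CG10472, itself a serine protease gene beside the Jon65A group, from 108 to 343 FPKM, where the authors' deposited table has q = 0.00546. Among these neighbours, 5 belong to a list of further S1 proteases, and 4 of them were higher. CG1304, beside Ser6, stood at 0.198 and 9.21 FPKM, where the authors' deposited table has q = 0.903. CG10477, beside yip7, stood at 0.140 and 4.74 FPKM, and CG33127, beside CG11911, at 4.22 and 14.6 FPKM, and the authors' deposited table gave both q = 0.998. CG30025 in the trypsin cluster was the exception. Of the 47 neighbours outside that list, no gene rose by the Cuffdiff q and 0 were higher at an unadjusted p of 0.05 or less. These counts are near the shares over all genes of 1.4% and 4.62%. The median log2 difference of the 46 with at least 1 FPKM was -0.071. The list may not hold every S1 protease gene, so proteases may remain among the 47. CG10472 was named by rule, and the other S1 neighbours were singled out after their values were seen.

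Other digestive enzymes were set beside the proteases. Of 35 further S1 protease and homologue genes listed, 3 rose and 1 fell, beside 1.4% and 0.908% of all genes. The median log2 difference of the 31 with at least 1 FPKM was 0.51. CG8299 rose from 61.4 to 321 FPKM, where the authors' deposited table has q = 0.00546. The neighbouring genes Phae1 and Phae2 went apart: by the authors' deposited table Phae1 fell from 86.5 to 43.1 FPKM (q = 0.0498) and Phae2 rose from 4.93 to 12.8 FPKM (q = 0.0332). The summed level of this list was 3652 and 3852 FPKM. Its largest part in both genotypes was CG18180, which was not called and stood at 2482 and 1980 FPKM. The sum therefore says little about the other genes. Of the 31 genes, 20 lay above 0 and 11 below.

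In further enzyme lists, most of the called genes moved upwards. Of 33 other proteases and peptidases, 4 rose and none fell, 11 were higher and 0 lower at an unadjusted Cuffdiff p of at most 0.05, and the median log2 difference was 0.39. Over all genes 1.4% rose and 0.908% fell by q, and 4.62% were higher and 3.15% lower at such a p. Of the 35 S1 genes, 7 were higher and 3 lower at such a p. The counts were 5 and 2 for 14 carbohydrases, 3 and 1 for 12 lipases, and 4 and 0 for 7 lysozymes. The carboxypeptidase genes CG17633 (232 to 614 FPKM) and CG4408 (23.9 to 59.0 FPKM) rose, and the authors' deposited table gave both q = 0.00546. The aminopeptidase genes CG31343 (13.9 to 42.2 FPKM, q = 0.00546) and CG8774 (3.32 to 7.70 FPKM, q = 0.0366) also rose by the authors' deposited table. Of 14 carbohydrases 3 rose and 1 fell (median 0.40), of 12 lipases 2 rose (median 0.83), and of 7 lysozymes LysX rose, from 152 to 350 FPKM, where the authors' deposited table has q = 0.00983, while all 7 lay above 0 (median 3.67) and summed to 1412 and 7255 FPKM. LysB, LysC, LysD and LysE, near-identical copies whose single values are uncertain, had larger differences than LysX and were not called, with LysB at 73.0 and 938 FPKM. The called carbohydrases were the amylases Amy-d (16.2 to 105 FPKM) and Amy-p (21.3 to 87.6 FPKM), which are near-identical copies, the maltase Mal-A1 (16.4 to 44.0 FPKM) and, as the fall, the maltase Mal-A4 (26.9 to 11.9 FPKM, q = 0.0257 by the authors' deposited table). The lipases were Lip3 (3.63 to 46.1 FPKM) and mag (240.5 to 556 FPKM), the latter, where the authors' deposited table has q = 0.0332.

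**Figure D4:**
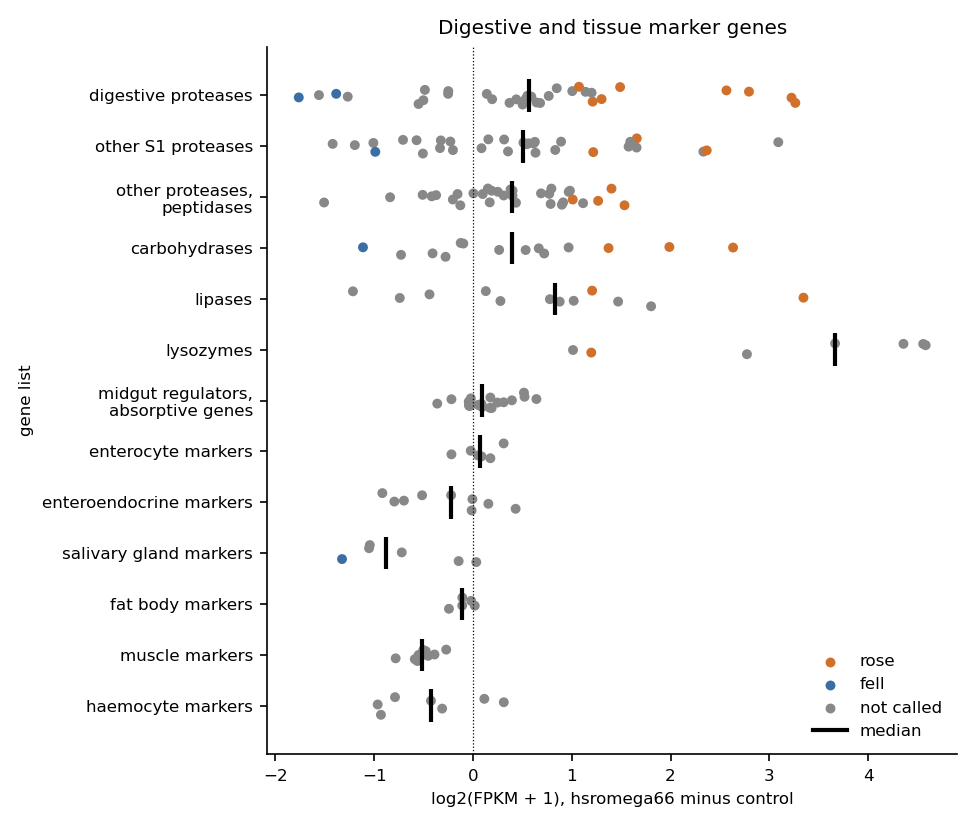
Difference of each gene with at least 1 FPKM on the log2(FPKM + 1) scale, hsromega66 minus control, for the digestive proteases, other digestive lists and tissue markers, with a bar at each median. The medians are 0.57 for the proteases, 0.51 for other S1 proteases, 0.093 for midgut regulators and absorptive genes, and -0.52 for muscle markers.

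Genes listed as marking or building the midgut without digesting food lay closer to 0 on the log2(FPKM + 1) scale. Their levels ran only from 0.861 to 41.8 FPKM, and this scale understates changes of low genes. Whole larvae were used, so expression of these genes in other tissues may enter the values. The median log2 difference of the 19 listed midgut regulators and absorptive genes with at least 1 FPKM was 0.093. Of the 20 listed, the 6 enterocyte markers included, none was called and 0 reached an unadjusted Cuffdiff p of 0.05 or less. With 2.31% and 7.82% of all genes called by these rules, counts of 0 among so few genes are near the background. Their most different member was Ptx1, a homeobox gene of the midgut, at 2.76 and 4.87 FPKM. The 6 enterocyte markers had a median of 0.068, none was called and 0 had such a p, and mex1 differed most, at 33.5 and 41.8 FPKM. Of 3 copper cell markers 2 were listed, and Vha100-4 stood at 3.25 and 6.03 FPKM with an unadjusted p of 0.0434 in the authors' deposited table. The other, CG10899, pointed the other way, at 3.20 and 2.00 FPKM. Of the 9 enteroendocrine markers none was called, and 2 were lower at such a p, among them CCHa2 (38.6 and 19.9 FPKM). The summed level was 64.1 and 39.6 FPKM, and CCHa2 was its largest part. Of the 9, 7 lay below 0, but Tk (1.61 and 1.58 FPKM) and AstC (2.35 and 2.34 FPKM) hardly differed. AstA (4.31 and 4.92 FPKM) and Dh31 (1.31 and 2.11 FPKM) lay above 0.

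Other tissues contribute to the FPKM total of a whole larva. Summed marker levels were 9275 and 6315 FPKM for 10 muscle genes, 331 and 224 FPKM for 7 haemocyte genes, 47650 and 43418 FPKM for 6 salivary gland genes, and 35255 and 32596 FPKM for 5 fat body genes. Sgs7 was the largest part of the salivary gland sum, at 29798 and 30487 FPKM. The other 5 salivary gland genes lay below 0, and the median log2 difference of the 6 was -0.88. Of the 7 haemocyte genes, 5 lay below 0, while vkg and Col4a1 pointed the other way and were not called. No marker of the muscle, haemocyte, salivary gland and fat body lists was at 0 in either genotype, and Sgs1 alone was called. By unadjusted Cuffdiff p, 1 muscle gene, Mlc1 (984 and 571 FPKM), and 3 haemocyte genes, Hml (49.3 and 24.8 FPKM) among them, were lower, as were Sgs1, Sgs3 and Sgs4 of the salivary gland, and no fat body gene was. Over all genes 0.908% fell by q and 3.15% were lower at an unadjusted Cuffdiff p of at most 0.05. Lsp1alpha, the fat body gene with the largest difference, stood at 8187 and 6915 FPKM. In the Malpighian tubule list of 4 genes NaPi-T rose from 11.5 to 24.1 FPKM, where the authors' deposited table has q = 0.0366. Uro (56.3 and 91.3 FPKM) was also higher but was not called. Irk1 (14.9 and 11.6 FPKM) and Vha55 (192 and 172 FPKM) were not called and pointed the other way. The list summed to 274 and 299 FPKM, and Vha55 was the largest part of this sum. The tracheal genes serp and verm summed to 77.6 and 114.9 FPKM, and the hindgut gene byn stood at 1.40 and 2.20 FPKM. The part of these tissues in the protease values was not tested.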

How the data were processed

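Per the labels' protocols, each library was made from total RNA of 5 larvae with a stranded kit that removes ribosomal RNA, and paired reads had 100 bp. The submitters' processing notes name the build dm6 and the tools Cuffdiff 2.1.1, Cufflinks, Bowtie and TopHat. The authors deposited, per the file headers, 1 FPKM value for each transcript in each genotype, with the libraries of a genotype pooled. They also deposited a log2 fold change, a p-value and a q-value per transcript, the q-values being Benjamini-Hochberg adjusted over all 21529 transcripts (recomputed within 1e-05). The smallest q, 0.00546, is shared by 197 transcripts. Every transcript reached at least 0.669 FPKM in 1 genotype. Whether libraries of a genotype stem from separate cultures is not stated, so the p-values may cover technical spread only.

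FPKM was summed per gene. Differences are log2(FPKM + 1), which understates changes of low genes, and medians used genes with at least 1 FPKM in 1 genotype. No test of own was run, because pooled values give none. Gene positions came from the Ensembl 115 annotation, whose coordinates are dm6. All 32 proteases lay inside the locus given in the table. List names were matched by symbol or RefSeq synonym. Every protease was named. Of the other lists, called genes were named, or the most different one. Some further genes of these lists were named outside this rule, with their values known. The members and lists were chosen with earlier results of these data known. Scripts were tested on simulated data. Tools were Python 3.11.15, matplotlib 3.10.9, scipy 1.17.1, pandas 2.3.3 and numpy 2.4.6. No nucleotide or protein sequences were used here.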

Additional observations from a re-analysis of the deposited data

How the results depend on the processing

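The count of 10 called proteases was 7 at a q of at most 0.01, 11 at 0.1, and 10 both with a minimum log2 ratio of 1 and with a minimum of 5 FPKM. It was 6 with Jon and Try symbols alone, a choice made after seeing the data. The median log2 difference of 0.57 was 0.54 with a pseudocount of 5, 0.58 when centred on all genes, 0.63 with each genotype scaled to the same summed FPKM, 0.54 with Jon and Try symbols alone and 0.46 with tandem neighbours summed, the last also chosen after seeing the data. It was 0.57 with a pseudocount of 0.1, with no filter and with at least 5 FPKM. The ratio of summed FPKM of 1.30 was 1.35 when so scaled, 1.26 without Jon25Biii, the most abundant gene, and 1.19 with Jon and Try symbols alone. Summing genes by protein identity was not run, and leaving out single replicates was not possible. No paired analysis was possible because the values were pooled over the libraries of each genotype. Depth is unknown, so the precision of the lowest genes, such as lambdaTry and Ser8, cannot be given.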
